A study of Caenorhabditis elegans with 36 samples.

Results

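A set of 9 genes separated the libraries labelled *eat-2* from wild type labelled 25 °C, a pair of groups that were otherwise nearly alike. They were *haf-6*, WBGene00005646, *srp-6*, WBGene00010295, *T01G5.8*, *ZK6.6*, *C09E7.8*, *Y39B6A.27* and *lec-9*, 9 of the 46093 genes in the table. They were chosen by their measured levels in those 2 groups, so that difference is described here with no test. The 2 groups differ in labelled genotype and in labelled temperature, which cannot be told apart in this comparison. The list was given by name with no threshold, and 82 other genes whose libraries did not overlap between the groups differed by at least as much as the member with the smallest difference.

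The study sequenced polyadenylated RNA from whole *C. elegans* worms, with 6 libraries in each of 6 labelled groups. The labels were wild type at 20 °C, *eat-2*, *ife-2* and *osm-5* at 20 °C, and wild type and *glp-1* at 25 °C. The growth protocol names 20 °C for every library, whereas the labels and the library names of the last 2 groups give 25 °C. Worms were grown on plates with OP50 bacteria and are called prefertile young adults in one field and day 1 adults in another. The strain list of the study names N2 as wild type and the alleles *eat-2(ad1116)*, *ife-2(ok306)*, *osm-5(p813)* and *glp-1(e2141)*, whereas the labels give gene names alone. Nothing in the labels says whether replicates came from separate cultures, so p-values measure the spread between these libraries, which may be technical. Groups are named below as their labels name them.

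Several of the 9 genes have a known role, and the others are described by position and level. *haf-6* encodes an ATP-binding cassette transporter that *C. elegans* needs for efficient RNA interference. *srp-6* encodes an intracellular serpin, a peptidase inhibitor that protects *C. elegans* cells from necrosis. *lec-9* encodes a galectin, a lectin that binds galactose-containing sugars. WBGene00005646 and WBGene00010295 are annotated as pseudogenes, which are gene copies not thought to make a full protein. Of the genes that give the groups their names, *eat-2* encodes a pharyngeal acetylcholine receptor subunit, *ife-2* a cap-binding translation factor, *osm-5* a protein of ciliary transport and *glp-1* a Notch receptor that keeps the germ line dividing.

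The libraries held 35524715 to 55878280 counts each, and levels are given as CPM, the count relative to the scaled library total, after scaling all 36 libraries together. The transcript levels of the 4 mutated genes did not bear out the labels, as none of them was low under its own label alone. A mutation need not lower its own transcript, so an unchanged level does not by itself contradict a label. Libraries labelled *eat-2* held 3.46 ± 0.251 CPM of *ife-2* and those labelled *ife-2* held 65.8 ± 6.85 CPM, against 23.4 ± 0.837 CPM in wild type 20 °C (SD, n = 6 each). *eat-2* itself was at 34 counts or fewer in each library labelled *eat-2* and gave no check of the label. *osm-5* was at 0.898 ± 0.308 CPM under its own label, below the 2.92 ± 0.173 CPM of wild type 20 °C, but wild type 25 °C was as low at 0.983 ± 0.226 CPM (SD, n = 6 each). *glp-1* was at 148 ± 34.7 CPM under its own label and 141 ± 36.3 CPM in wild type 25 °C, and lowest in the libraries labelled *ife-2* at 8.87 ± 1.28 CPM (SD, n = 6 each). In the libraries labelled *ife-2*, the summed level of 20 germ line markers was 108 to 148 CPM, compared with 2624 to 5276 CPM in the other 30 libraries, and none of the 20 was at the counting floor. The 13 sperm markers summed to 9.86 to 13.5 CPM there, against 634 to 841 CPM in wild type 20 °C. Replicate 3 of *osm-5* stood apart, with a scaling factor of 0.427 (next lowest 0.694) and a sperm marker sum of 2677 CPM, compared with 774 to 1019 CPM in the other 5 libraries of its group. Its sums for all other marker lists lay below those 5 libraries. They ranged from a wide gap for body wall muscle (4408 against 7903 to 10559 CPM) to a narrow gap for intestine (3325 against 3337 to 4333 CPM). The germ line sum was 2624 against 4168 to 4982 CPM. Levels and calls of members that rest on that library are given with and without it. Distances between groups, correlations and the check of the labels above include it.

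The closeness of the 2 groups was a property of the whole transcriptome. Between *eat-2* and wild type 25 °C, the median size of the log2 ratio of mean levels over 16298 genes was 0.141, and 228 genes (1.4%) had no overlap between the 6 libraries of each group. In the other 14 pairs of groups this median was 0.268 to 1.27, and 12.6% to 75.8% of genes had no overlap. All 8 marker lists of tissues and germ cells overlapped in summed level between *eat-2* and wild type 25 °C. Because whole worms were measured, fewer cells of a type and less RNA per cell cannot be told apart. The libraries of the 2 groups did not overlap for any of the 9 listed genes, which were chosen by these levels. Of the 9, 1 was higher in *eat-2* (0.54% of all genes were) and 8 were lower (0.859%). Ranked by size of difference among the 228 genes, WBGene00005646 came 1st, WBGene00010295 8th and *haf-6* 22nd, and *srp-6* had the lowest rank of the 9 at 91. WBGene00005646 passed the filter on low counts through its *eat-2* libraries alone.

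**Figure D1:**
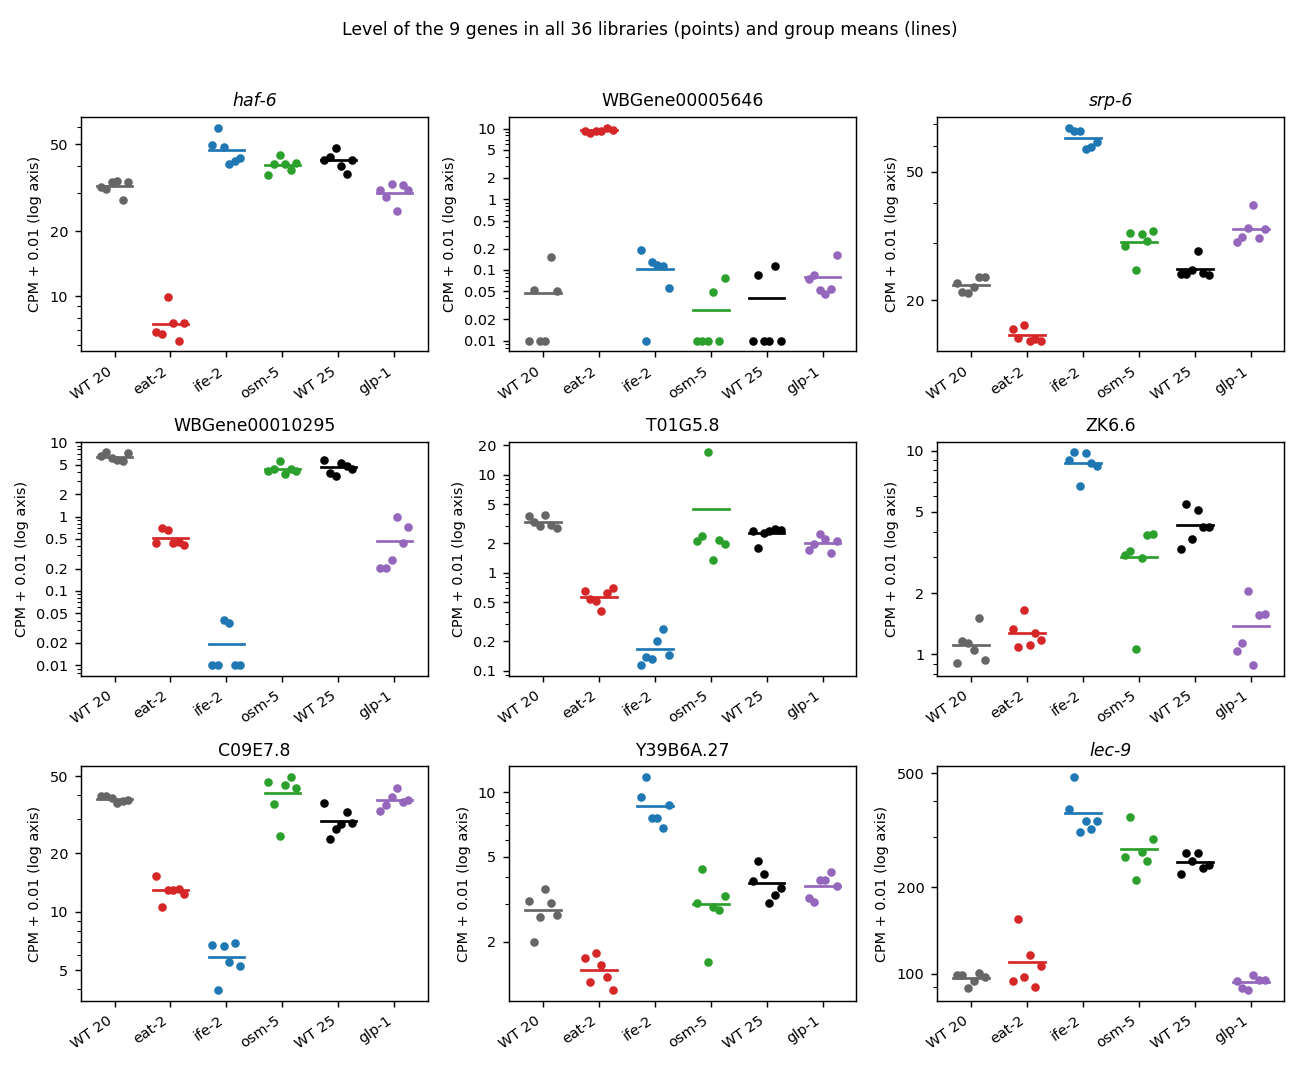
Each panel plots 1 of the 9 genes, with the level of each of the 36 libraries as a point (CPM + 0.01, log axis) and the mean of the 6 libraries of each group as a line. The *eat-2* libraries of WBGene00005646 lie near 9.38 CPM while no other library passes 0.182 CPM, and for *haf-6* and *srp-6* the *eat-2* libraries lie below all others.

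The 9 genes were spread over 4 chromosomes of the WBcel235 assembly, and 6 of them were on chromosome V. None was on chromosome II, where *eat-2* itself lies from base 14166878. In map order on V, *ZK6.6* (WBGene00022641) lies on the plus strand at chrV:388697-391600. WBGene00005646 follows on the minus strand at chrV:7382021-7383309, and *srp-6* (WBGene00005647) lies next to it on the same strand at chrV:7384232-7386102, only 922 bp away. *T01G5.8* (WBGene00077585, plus strand) is a short gene with 2 exons at chrV:15116268-15116595. WBGene00010295 (minus strand) lies at chrV:17653482-17655281 and *Y39B6A.27* (WBGene00012686, plus strand) at chrV:19031756-19035255. Apart from the adjacent pair, neighbouring members on V were 1.38 to 7.73 Mb apart. Off chromosome V, *haf-6* (WBGene00001816, minus strand, 3 transcripts) lies at chrI:1162880-1175809, *C09E7.8* (WBGene00015642, minus strand) at chrIII:6553627-6558587 and *lec-9* (WBGene00002272, plus strand) at chrX:17600487-17601503. Counts of whole genes were analysed, so no value is tied to a single exon, intron or UTR. Whether counting used the strand is not stated. *haf-6* shares 44 bp with *Y48G8AL.7* and *Y39B6A.27* shares 1459 bp with the noncoding RNA *Y39B6A.84*, both on the opposite strand, so that reads from the shared bases cannot be told apart.

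*haf-6* was lowest in *eat-2*. Its counts in the 6 *eat-2* libraries were 321, 255, 528, 281, 298 and 351, while wild type 25 °C held 1694 to 1777 counts. Its lowest, median and highest levels were 6.25, 7.20 and 9.92 CPM in *eat-2* and 36.7, 42.5 and 48.0 CPM in wild type 25 °C, a 5.65-fold lower mean in *eat-2*. Every *eat-2* library lay below each of the other 30, with a gap of 2.49-fold to the nearest. The levels (again lowest, median and highest) were 27.9, 32.9 and 33.9 CPM in wild type 20 °C and 24.7, 30.8 and 32.9 CPM in *glp-1*. They reached 40.6, 46.0 and 59.6 CPM in *ife-2* and 36.2, 40.6 and 44.9 CPM in *osm-5*. The order of the means was *ife-2*, wild type 25 °C, *osm-5*, wild type 20 °C, *glp-1* and *eat-2*, and the ranges separated neighbours only between *osm-5* and wild type 20 °C and between *glp-1* and *eat-2*. The genes on either side did not share the pattern. *Y48G8AL.7*, which overlaps *haf-6*, had a log2 ratio of *eat-2* to wild type 25 °C of -0.12, and *smg-2*, which encodes a helicase of nonsense-mediated decay, had 0.075, with overlapping libraries in both cases.

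WBGene00005646 was counted more than 7 times per library only in *eat-2*. The 6 *eat-2* libraries held 424, 332, 499, 349, 488 and 443 counts of this pseudogene, and none of the other 30 held more than 7. Its levels in *eat-2* were 8.74, 9.35 and 10.2 CPM (lowest, median, highest), with a coefficient of variation of 5.34%. The mean elsewhere was 0.0176 CPM in *osm-5*, 0.0300 CPM in wild type 25 °C, 0.0374 CPM in wild type 20 °C, 0.0688 CPM in *glp-1* and 0.0935 CPM in *ife-2*, and these 5 groups overlapped. In summed counts, 2535 in *eat-2* stood against 8 in wild type 25 °C, a ratio of 293 after scaling, with an exact 95% interval of 148 to 679 that covers counting error only. Against wild type 20 °C, with 11 counts, the ratio was 244 (136 to 490 by the same method). Single control libraries weighed on both values: the log2 ratio of mean levels moved from 8.29 to 9.27 without wild type 25 °C replicate 5 and from 7.97 to 9.14 without wild type 20 °C replicate 5. The ratio of summed counts after scaling was 99.4 (64.9 to 161) against the 21 counts of *ife-2*. That ratio was 139 (89.8 to 228) against the 20 counts of *glp-1* and 497 (213 to 1532) against the 5 counts of *osm-5*. Among 17457 genes, only 2 (0.0115%) had every *eat-2* library above all 30 others. WBGene00005646 entered these 17457 genes through its *eat-2* libraries alone, which were used to choose it. WBGene00005646 was separated by 48.1-fold, and the other gene, the pseudogene WBGene00020164 on chromosome II, by 1.01-fold.

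*srp-6*, the neighbour of that pseudogene, differed in the opposite direction and by much less. Its lowest, median and highest levels were 15.0, 15.2 and 16.8 CPM in *eat-2* and 23.98, 24.3 and 28.4 CPM in wild type 25 °C, a 1.60-fold lower mean. Wild type 20 °C lay between at 21.1, 22.3 and 23.7 CPM. The *eat-2* libraries were the 6 lowest of all 36, with a gap of 1.25-fold to the nearest other library. The levels were 58.5, 64.3 and 68.2 CPM in *ife-2*, 24.8, 31.2 and 32.7 CPM in *osm-5* and 30.4, 32.3 and 39.4 CPM in *glp-1*. In the order of the means *ife-2* was separate at the top, *glp-1* overlapped *osm-5*, *osm-5* overlapped wild type 25 °C, and wild type 20 °C and *eat-2* were each separate below. The overlap of *osm-5* with wild type 25 °C came from *osm-5* replicate 3 (24.8 CPM), and the other 5 libraries were at 29.4 to 32.7 CPM, above the wild type 25 °C maximum. *C03G6.17*, on the other side of the pseudogene, was at 2.41 ± 0.329 CPM in *eat-2* and 2.68 ± 0.511 CPM in wild type 25 °C (SD, n = 6 each), with overlapping libraries. Within 100 kb of the pseudogene, the trypsin-like protease genes *try-13*, *try-11* and *try-8* were also higher in all *eat-2* libraries than in wild type 25 °C, at low levels. Their log2 ratios were 1.64, 2.01 and 2.33, with *eat-2* means of 0.648, 0.511 and 1.40 CPM.

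WBGene00010295 was low in 3 of the 6 groups. Its levels in the lowest, median and highest library were 0.409, 0.435 and 0.684 CPM in *eat-2* (16 to 35 counts) and 3.49, 4.53 and 5.83 CPM in wild type 25 °C (126 to 232 counts). The mean in *eat-2* was 9.01-fold lower. *glp-1* was at 0.190, 0.343 and 0.962 CPM and overlapped *eat-2*, and the 6 *ife-2* libraries held 2 counts in all. Wild type 20 °C (5.66, 6.27 and 7.26 CPM) and *osm-5* (3.78, 4.24 and 5.52 CPM) were high, like wild type 25 °C. Genes around it differed in the same direction. Within 100 kb, 4 of 19 other genes did not overlap between *eat-2* and wild type 25 °C, and all 4 were lower in *eat-2*. They were the F-box genes *fbxa-192* (log2 ratio -2.42) and *fbxa-108* (-1.05) and the pseudogenes WBGene00010209 (-1.91) and WBGene00010294 (-1.15). *fbxa-192* was at 0.825 ± 0.229 CPM in *eat-2* and 4.42 ± 0.462 CPM in wild type 25 °C (SD, n = 6 each).

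*T01G5.8* and *C09E7.8* shared an order with *eat-2* and *ife-2* as the 2 lowest groups. *T01G5.8* was at 0.401, 0.567 and 0.688 CPM in *eat-2* (15 to 32 counts) and 1.80, 2.66 and 2.79 CPM in wild type 25 °C, a 4.50-fold lower mean in *eat-2*. It was at 0.104, 0.133 and 0.258 CPM in *ife-2*, at 2.88, 3.15 and 3.91 CPM in wild type 20 °C and at 1.57, 2.04 and 2.46 CPM in *glp-1*. In *osm-5* the lowest and median levels were 1.35 and 2.13 CPM, and replicate 3 alone reached 16.9 CPM. The *osm-5* mean was therefore 4.47 ± 6.09 CPM (SD, n = 6) with that library and 1.98 ± 0.389 CPM (SD, n = 5) without it. The sperm marker sum of the same library was high as well, and its part in this level was not tested. Among the 47 genes within 100 kb of *T01G5.8*, none separated *eat-2* from wild type 25 °C.

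*C09E7.8* stood at 10.6, 13.0 and 15.4 CPM in *eat-2*, below the 23.8, 28.4 and 36.5 CPM of wild type 25 °C by 2.28-fold in the mean. The levels were 3.94, 6.06 and 6.88 CPM in *ife-2*, 36.3, 38.2 and 39.6 CPM in wild type 20 °C, 24.5, 44.1 and 49.4 CPM in *osm-5* and 33.2, 37.2 and 43.2 CPM in *glp-1*. The lowest *osm-5* library was replicate 3, and the other libraries of that group were at 35.9 to 49.4 CPM. *ife-2* and *eat-2* were each separate at the bottom, and the 4 groups above overlapped along the order. The pseudogene WBGene00017849, which starts 509 bp beyond *C09E7.8* on the same strand, was lower in *eat-2* as well, at 6.64 ± 1.08 CPM against 15.4 ± 3.76 CPM in wild type 25 °C (SD, n = 6 each). *C09E7.7*, on the other side, was higher in *eat-2*, at 65.1 ± 6.75 CPM against 48.3 ± 7.76 CPM (SD, n = 6 each).

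For *ZK6.6* and *lec-9*, *eat-2* overlapped wild type 20 °C and lay below wild type 25 °C. *ZK6.6* was at 1.08, 1.21 and 1.63 CPM in *eat-2* and 0.896, 1.08 and 1.49 CPM in wild type 20 °C, with overlapping libraries, and at 3.27, 4.20 and 5.44 CPM in wild type 25 °C. The mean in *eat-2* was 3.43-fold below wild type 25 °C and 1.14-fold above wild type 20 °C. *glp-1*, which carries the 25 °C label too, was at 0.873, 1.34 and 2.04 CPM and overlapped *eat-2* and wild type 20 °C. *ife-2* was highest at 6.69, 8.82 and 9.78 CPM. The *osm-5* libraries held 1.05, 3.15 and 3.90 CPM, and the lowest of these was again replicate 3, with the other 5 at 2.97 CPM or more.

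*lec-9* grouped in a like way. It was at 89.96, 102 and 156 CPM in *eat-2*, 89.5, 98.5 and 100.4 CPM in wild type 20 °C and 87.9, 94.6 and 98.7 CPM in *glp-1*, and these 3 groups overlapped. Wild type 25 °C was at 222, 243 and 264 CPM, *osm-5* at 213, 261 and 351 CPM and *ife-2* at 311, 341 and 485 CPM. The lowest *osm-5* library was replicate 3, and the other libraries of that group were at 248 to 351 CPM. The mean in *eat-2* was 2.22-fold below wild type 25 °C and 1.14-fold above wild type 20 °C. No gene within 100 kb of *ZK6.6* (31 genes) or *lec-9* (14 genes) separated *eat-2* from wild type 25 °C. Per kilobase of annotated exon, *lec-9* had the highest mean of the 9 genes in wild type 25 °C, at 454 CPM per kb, and WBGene00005646 the lowest, at 0.0274 CPM per kb.

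*Y39B6A.27* was at 1.18, 1.46 and 1.77 CPM in *eat-2* and 3.02, 3.71 and 4.76 CPM in wild type 25 °C, a 2.56-fold lower mean. Wild type 20 °C had 1.98, 2.85 and 3.53 CPM, *osm-5* 1.60, 2.97 and 4.36 CPM and *glp-1* 3.05, 3.75 and 4.24 CPM, and these ranges overlapped along the order. *ife-2* was separate above them at 6.78, 8.11 and 11.8 CPM. *eat-2* did not overlap wild type 20 °C. It overlapped *osm-5* through replicate 3 alone (1.60 CPM), and the other 5 *osm-5* libraries were at 2.82 CPM or more. The adjacent gene *asp-17*, which encodes an aspartyl protease, was at 5.13 ± 2.33 CPM in *eat-2* and 13.9 ± 4.48 CPM in wild type 25 °C (SD, n = 6 each), with overlapping libraries. The noncoding RNA *Y39B6A.84*, which overlaps *Y39B6A.27*, had no counts in either group.

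**Figure D2:**
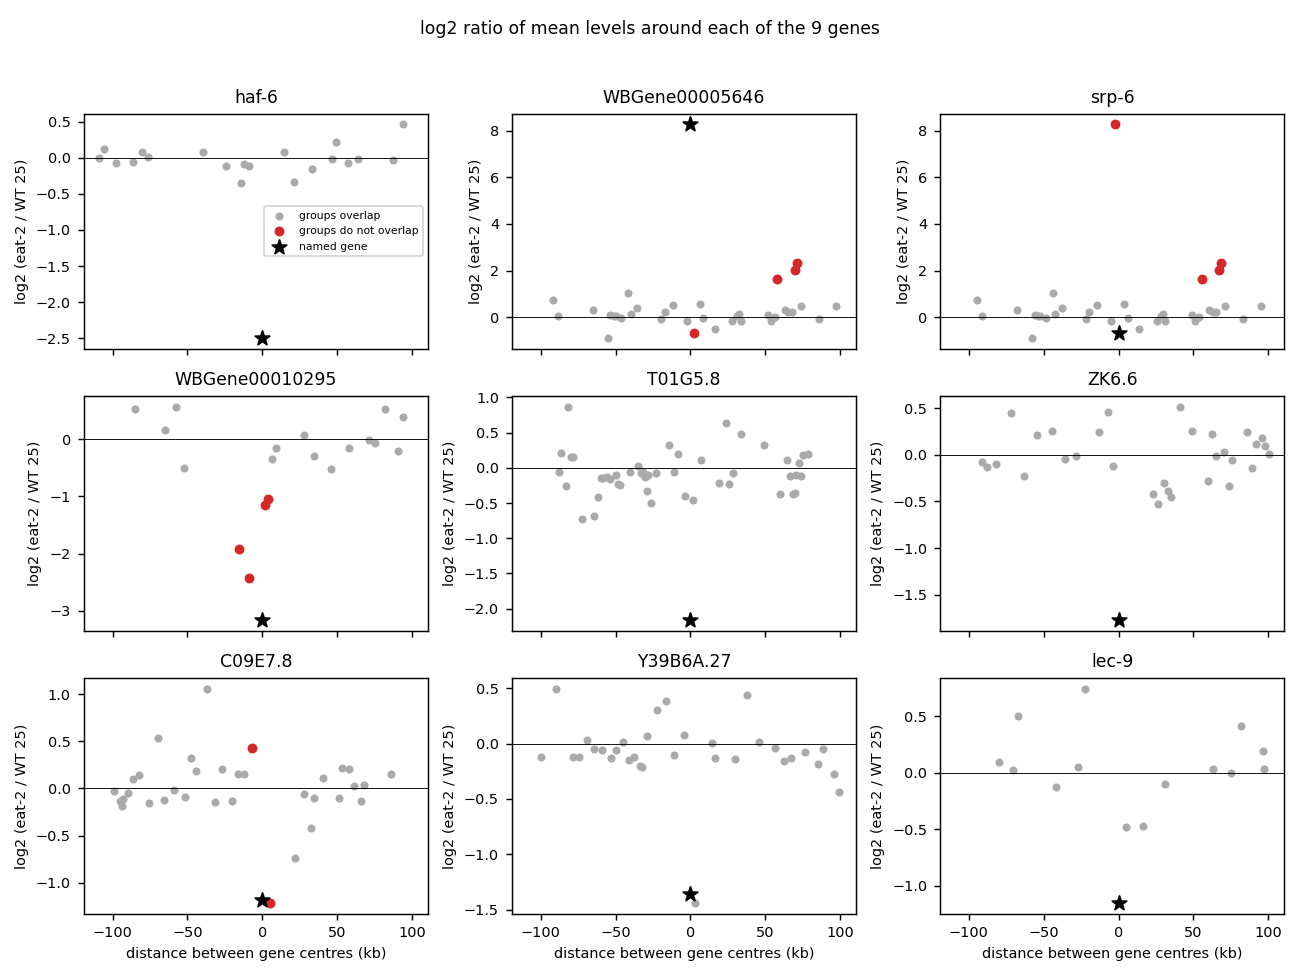
Each panel plots the genes within 100 kb of 1 of the 9 genes, with the distance between gene centres in kb on the x axis and the log2 ratio of mean CPM of *eat-2* to wild type 25 °C on the y axis. Red points are genes whose 6 libraries did not overlap between the groups, grey points overlapped and the star is the named gene: 4 red points lie below 0 around WBGene00010295, and none lies around *haf-6*, *T01G5.8*, *ZK6.6*, *Y39B6A.27* or *lec-9*.

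Chromosome V also held the largest number of other genes that separated the 2 groups. It carried 19.96% of the genes examined, 77 of the 228 without overlap, and 30 of those that differed by 2-fold or more (46.9% of them). Without overlap were 2.37% of its genes, against 0.940% to 1.53% on the other nuclear chromosomes. Each of these held 5 to 8 genes at 2-fold or more. The 6 members on V are among the 77, and genes next to each other are not independent points.

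**Figure D3:**
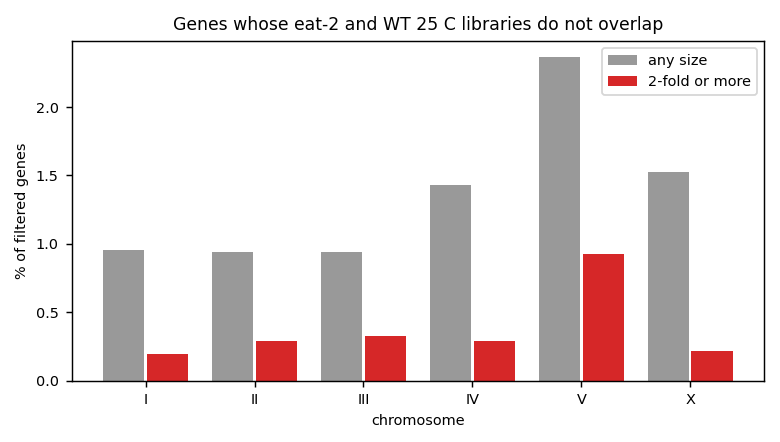
Bars give, for each nuclear chromosome, the percentage of filtered genes whose *eat-2* and wild type 25 °C libraries did not overlap, at any size (grey) and at a ratio of means of 2-fold or more (red). Chromosome V has the tallest bar of each kind, at 2.37% and 0.922%.

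Set against wild type 20 °C instead, *eat-2* did not overlap for 7 of the 9 genes, where 22.7% of all genes did not. Of these, 6 were lower in *eat-2* (8.53% of all genes) and WBGene00005646 was higher (14.1%), and *ZK6.6* and *lec-9* overlapped. The 2 wild types themselves did not overlap for 5 of the 9 genes (19.5% of all genes, 11.4% higher and 8.11% lower). *ZK6.6* was 3.91-fold, *lec-9* 2.53-fold, *haf-6* 1.31-fold and *srp-6* 1.12-fold higher in wild type 25 °C, and *T01G5.8* was 1.31-fold lower. The small difference in *srp-6* turned to a log2 ratio of -0.023 when levels were scaled by total counts alone. Between *glp-1* and wild type 25 °C, 5 of the 9 did not overlap (20.7% of all genes, 10% higher and 10.7% lower). WBGene00010295 was 9.99-fold, *ZK6.6* 3.17-fold, *lec-9* 2.62-fold and *haf-6* 1.40-fold lower in *glp-1*, and *srp-6* was 1.33-fold higher. All these comparisons share libraries with the one that chose the genes and are descriptions.

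The libraries that were not used to choose the genes allowed a test in *ife-2*, *osm-5* and *glp-1*, each against the same 6 libraries of wild type 20 °C. In *ife-2*, 5 members were significantly up-regulated (44.1% of all genes were), 3 were down-regulated (40.9%), and WBGene00005646 was too low to test. Of all genes, 85.1% were called in one direction or the other. The median log2 fold change was 1.14 over the 8 tested members and 0.17 over all genes. *ZK6.6* rose most, by a log2 fold change of 3.08 ± 0.138 (SE, edgeR adjusted p = 5.14e-12). *lec-9* rose by 2.01 ± 0.0960 (edgeR adjusted p = 1.17e-11), *Y39B6A.27* by 1.71 ± 0.148, *srp-6* by 1.61 ± 0.0587 and *haf-6* by 0.66 ± 0.0811. *T01G5.8* fell, with a log2 fold change of -4.26 ± 0.189 (edgeR adjusted p = 4.75e-12), as did *C09E7.8* at -2.60 ± 0.111. WBGene00010295 fell from 1828 counts in wild type 20 °C to 2, a ratio of 711 after scaling (exact 95% interval 196 to 5873, counting error only). It passed the filter on low counts through wild type 20 °C alone, so the filter fixed the direction of its call. *T01G5.8* held 4 to 10 counts per library in *ife-2*, against 124 to 196 in wild type 20 °C. Germ line and sperm marker sums were lower in these libraries by the amounts given above. The oocyte sum was lower too (median 1393 against 7278 CPM in wild type 20 °C). Median sums for intestine (8670 against 3826), hypodermis (4488 against 1790) and body wall muscle (19445 against 10445) were higher. So were those for neurons (389 against 257) and yolk (142470 against 48077). The part of these shifts in the differences of the members was not tested. With libraries scaled by total counts alone the median over all genes moved to -0.35, and *haf-6* was no longer called (log2 fold change 0.13).

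In *osm-5*, 4 members were up-regulated (7.01% of all genes) and none was down-regulated (10.9%) by edgeR, where 18% of all genes were called. *lec-9* rose by a log2 fold change of 1.54 ± 0.103 (SE, edgeR adjusted p = 1.91e-06) and *ZK6.6* by 1.48 ± 0.258 (edgeR adjusted p = 0.00116). *srp-6* rose by 0.49 ± 0.0667 (edgeR adjusted p = 0.000226) and *haf-6* by 0.38 ± 0.0790 (edgeR adjusted p = 0.00336). WBGene00010295 had a log2 fold change of -0.49 ± 0.125 with an edgeR adjusted p of 0.0111, so that 1 member was lower at an unadjusted p below 0.05, and DESeq2 also called 1 lower. *T01G5.8* (0.53), *C09E7.8* (0.13) and *Y39B6A.27* (0.14) did not pass. Without *osm-5* replicate 3, *T01G5.8* turned to -0.72 (edgeR adjusted p = 0.000496), WBGene00010295 passed at -0.61, and *C09E7.8* passed at 0.22, giving 5 members higher and 2 lower. *lec-9*, *ZK6.6*, *srp-6* and *haf-6* stayed up-regulated without that library (1.56, 1.63, 0.50 and 0.31). The median log2 fold change was 0.43 over the 8 tested members and 0.051 over all genes. The calls for *haf-6* and *srp-6* were lost with scaling by total counts (0.027 and 0.18) or by the upper quartile (0.24 and 0.36), and that of *ZK6.6* with total counts (1.25). *haf-6* also lost its call without any 1 of wild type 20 °C replicates 1 to 5 or *osm-5* replicate 4, with adjusted p-values up to 0.0122.

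In *glp-1*, *srp-6* was up-regulated (14.2% of all genes) and WBGene00010295 and *T01G5.8* were down-regulated (13.9%), where 28.1% of all genes were called. The log2 fold changes were 0.58 ± 0.0713 for *srp-6* (SE, edgeR adjusted p = 3.26e-05), -3.78 ± 0.336 for WBGene00010295 (edgeR adjusted p = 1.79e-06) and -0.71 ± 0.126 for *T01G5.8* (edgeR adjusted p = 0.000562). With all 36 libraries in one fit *T01G5.8* kept its size (-0.72) but was not called (edgeR adjusted p = 0.182). The other 5 tested members had log2 fold changes of -0.092 (*haf-6*), 0.30 (*ZK6.6*), -0.017 (*C09E7.8*), 0.37 (*Y39B6A.27*) and -0.048 (*lec-9*) and did not pass. The median was -0.033 over the 8 tested members and 0.015 over all genes. The 2 groups also differ in labelled temperature, and the genotype and the temperature cannot be told apart.

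**Figure D4:**
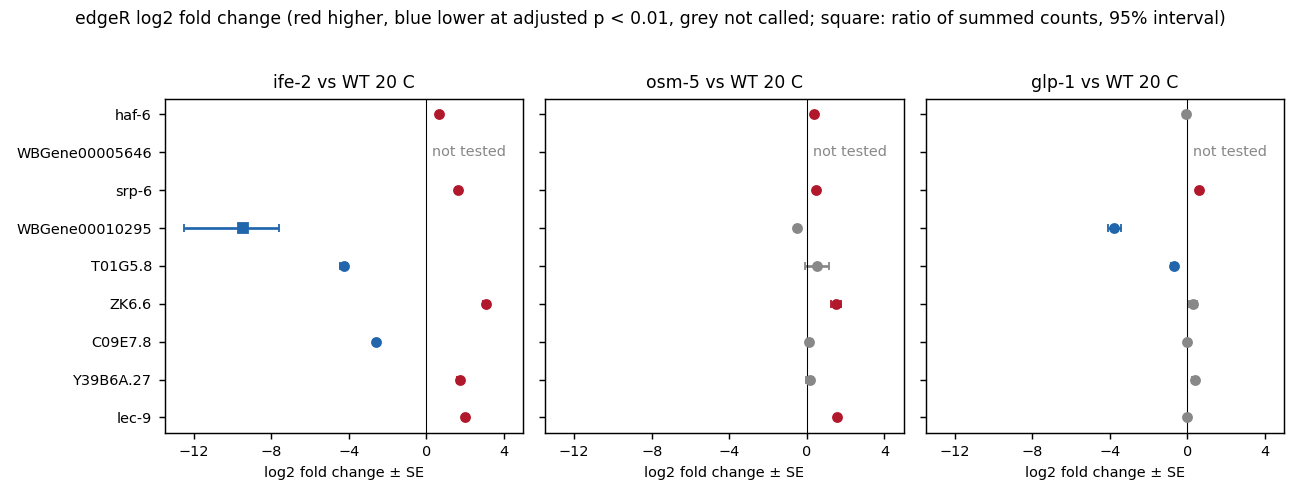
Points give the edgeR log2 fold change (x axis) of each of the 9 genes in *ife-2*, *osm-5* and *glp-1* against wild type 20 °C, with bars of 1 SE, in red where higher and blue where lower at an adjusted p below 0.01. The square is a log2 ratio of summed counts with its 95% interval: in *ife-2* WBGene00010295 lies farthest left, and WBGene00005646 was not tested in any panel.

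Other genes that carry the family symbols of *haf-6*, *srp-6* and *lec-9* did not separate *eat-2* from wild type 25 °C. Families were taken by symbol, so genes without a symbol, such as the pseudogene WBGene00005646 beside *srp-6*, were not counted. This held for 6 other tested *haf* transporter genes, 5 other *srp* serpin genes and 11 other *lec* galectin genes, with median log2 ratios of -0.058, -0.080 and -0.11. *srp-2* had the lowest value among the serpins at -0.99, with 5.86 ± 2.13 CPM in *eat-2* and 11.7 ± 3.35 CPM in wild type 25 °C (SD, n = 6 each). In *ife-2* all 11 other galectin genes were up-regulated against wild type 20 °C, under TMM and the 3 other scalings alike, where 44.1% of all genes were called higher and 40.9% lower. Among them *lec-6* rose by 1.94 ± 0.147 and *lec-11* by 1.90 ± 0.111 on the log2 scale (SE). The part of the higher somatic marker sums of these libraries, given above, was not tested. Of the serpins 4 rose and 0 fell, led by *srp-2* (2.20 ± 0.126) and *srp-1* (1.23 ± 0.131), but these counts became 2 and 1 with total counts alone and 3 and 1 with DESeq2 size factors. Of the *haf* genes 3 rose and 2 fell (4 and 2 by the upper quartile, 3 and 3 by total counts), the largest rises being *haf-9* (1.52 ± 0.0691) and *haf-4* (1.38 ± 0.0774).

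In *osm-5* none of the 6 *haf* genes passed, 3 serpins rose and 1 fell, and 1 galectin rose, where 7.01% of all genes rose and 10.9% fell. These were led by *srp-2* (1.26 ± 0.164), *srp-3* (-1.02 ± 0.113) and *lec-5* (0.58 ± 0.0901), as log2 fold changes with SE. The galectin count became 4 higher and 1 lower, and that of the *haf* genes 0 higher and 2 lower, without *osm-5* replicate 3. With total counts alone 1 serpin and 0 galectins were called higher, and with upper-quartile scaling 1 serpin and 1 galectin. In *glp-1* 0 *haf* genes rose and 2 fell, 2 serpins rose and 0 fell, and 4 galectins rose and 2 fell, where 14.2% of all genes rose and 13.9% fell. With total counts alone 1 *haf* gene was called lower and the galectins came to 3 higher and 1 lower, and with upper-quartile scaling 1 galectin was called lower. Among the galectins the 2 largest changes with separate libraries were *lec-5* (1.03 ± 0.0664) and *lec-8* (-0.58 ± 0.0704), and among the serpins *srp-3* (0.86 ± 0.109) and *srp-1* (0.48 ± 0.0949).

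Over all 36 libraries the 9 genes did not share one pattern. Pearson's r between pairs of members on log2 CPM ran from -0.932 (*haf-6* and WBGene00005646) to 0.914 (*srp-6* and *Y39B6A.27*). These values are descriptions over libraries that share 6 groups and a common scaling and include those used to choose the genes. WBGene00005646 had more than 7 counts only in *eat-2*, so its r with *haf-6* rests on those libraries. The gene most like *haf-6* was *ife-2* on chromosome X (r = 0.917), and the next, *col-135*, was at 0.767. WBGene00010295 was most like its neighbours *fbxa-192* (0.9697), WBGene00010209 (0.959) and WBGene00010294 (0.942), and *C09E7.8* most like its neighbour WBGene00017849 (0.971). *T01G5.8* was most like WBGene00045321, a pseudogene on chromosome IV (0.958). *srp-6* was most like *best-14* (0.945), *lec-9* most like the glucuronosyltransferase gene *ugt-63* (0.936) and *ZK6.6* most like *pssy-1* (0.919). WBGene00005646 had no close match, with *srw-85* the nearest at 0.719.

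Together with WBGene00005646 and WBGene00020164 on the high side, 14 genes (0.0802%) lay lower in all *eat-2* libraries than in the other 30. *ife-2* was separated by 5.81-fold, *haf-6* by 2.49-fold and *srp-6* by 1.25-fold. The remaining 11 genes, none of them a member, were separated by 1.01-fold to 1.22-fold. The other 6 members that were lower than in wild type 25 °C met libraries of at least 1 other group within the *eat-2* range or below it. For *Y39B6A.27* the sole such library was *osm-5* replicate 3 at 1.60 CPM, and the next lowest outside *eat-2* was at 1.98 CPM, above the *eat-2* maximum of 1.77 CPM.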

How the data were processed

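The 36 libraries came from polyadenylated RNA. The authors deposited whole-number counts for each gene, made with cutadapt trimming, STAR alignment to WBcel235 (Ensembl release 90) for quality checks, Salmon quantification and tximport. Versions are not given in the sources used here. Libraries were grouped by labelled genotype and temperature. Identifiers were named from the Ensembl release 115 annotation of WBcel235, which held 45842 of 46093. Unassigned per-sample columns numbered 0.

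The 9 genes, the gene families and the marker lists were chosen with earlier results of these data known. Levels are CPM with TMM factors over 36 libraries, set on the 17457 genes that reached 10 counts in 6 or more libraries. The same filter over the 12 libraries compared was used for edgeR 4.0.16 (glmQLFit, glmQLFTest, R 4.3.3), tested on simulated data first. Calls used a Benjamini-Hochberg adjusted p below 0.01 over all genes. WBGene00005646 did not pass this filter in the 3 tested comparisons. Groups used to choose the genes were described by whether the ranges of their libraries overlapped. Likeness was Pearson's r on log2 CPM with a prior count of 2. Named genes were the members, the mutated genes, the nearest gene on each side, the genes most like each member, and of each family at most 2 per comparison past the test with separate libraries, by size. The genes within 100 kb, the genes lowest or highest in *eat-2* alone and *srp-2* in *eat-2* were named after their values were seen. Alternatives were DESeq2 1.42.0, 3 other scalings, no filter, a fit of all libraries, an adjusted p below 0.05, a replicate block and leaving out each library. No 2 replicates agreed within sampling noise.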

Additional observations from a re-analysis of the deposited data

Results flagged for a closer look

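Of the 54 sets of 6 libraries (9 genes in 6 groups), 5 held a library far from the other 5 by Dixon's criterion, which chance meets in about 1 in 20 sets. Of the 5, 2 were replicate 3 of *osm-5*, at 16.9 CPM for *T01G5.8* (others 1.35 to 2.38 CPM) and at 1.05 CPM for *ZK6.6* (others 2.97 to 3.90 CPM). In that library the sperm marker sum was 2677 CPM, against 774 to 1019 CPM in the other 5, and all other marker sums lay below the other 5. The part of these shifts in the 2 values was not tested. *srp-6* was at 28.4 CPM in wild type 25 °C replicate 4 (others 23.98 to 24.8 CPM). *T01G5.8* was at 1.80 CPM in wild type 25 °C replicate 2 (others 2.55 to 2.79 CPM). WBGene00005646 was at 0.141 CPM, 7 counts, in wild type 20 °C replicate 5 (others 0 to 0.0421 CPM).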

How the results depend on the processing

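The number of members without overlap was 9, 7, 5 and 5 in the 4 described comparisons and stayed within 1.5-fold under the 3 other scalings and without each library. In *ife-2* the calls were 5 higher and 3 lower, and *haf-6* lost its call with total counts alone. The count called lower was 2 without each of the 6 wild type 20 °C libraries, because WBGene00010295 then failed the filter on low counts and was not tested. In *osm-5* the 4 members called higher became 1 with total counts alone, 2 with upper-quartile scaling and 2 with the replicate block, and 3 to 5 without each library in turn. The count called lower, 0, became 1 with DESeq2, with total counts alone, with upper-quartile scaling, with no filter and at an adjusted p below 0.05, and 0 to 2 without each library in turn. Leaving out *osm-5* replicate 3 reversed *T01G5.8* to -0.72, and its range without each library was -0.72 to 0.70. The log2 ratio of *srp-6* between the wild types reversed to -0.023 with total counts alone. In *glp-1* the 1 member called higher became 2 at an adjusted p below 0.05, and the 2 called lower became 1 with all 36 libraries in one fit, where *T01G5.8* was not called (-0.72). The cause was not tested. The replicate block is a fit by number alone, since same-numbered libraries did not deviate together (correlations -0.315 to 0.105) and none correlated best with its own number. It removed the *osm-5* calls of *haf-6* (0.38) and *ZK6.6* (1.43) and changed no other member's call. WBGene00005646 outside *eat-2*, at 0 to 7 counts a library, and WBGene00010295 in *ife-2* are limited by depth.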

Other observations

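Some of the 3 genes most like a member over all 36 libraries lay on another chromosome than that member. *W10G11.3* on chromosome II, among the 3 genes most like *haf-6* (r = 0.763), was at 2.68 CPM in *eat-2* and 5.85 CPM in wild type 25 °C. *T04D3.5* on chromosome I, second most like *C09E7.8* (r = 0.927), was at 5.75 and 18.04 CPM in the same groups. *ugt-63*, most like *lec-9*, was at 15.3 CPM in *eat-2*, 34.6 CPM in wild type 25 °C and 11.3 CPM in wild type 20 °C. *col-142*, a cuticle collagen gene second most like *Y39B6A.27* (r = 0.904), was at 256 and 409 CPM in *eat-2* and wild type 25 °C. Both of these genes lie on chromosome V. *elo-1*, a fatty acid elongase gene second most like *ZK6.6* (r = 0.913), was at 284 and 339 CPM. Its log2 ratio between these 2 groups was -0.26, against -1.78 for *ZK6.6*.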
